A study of Homo sapiens with 8 samples.

Results

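WNT ligand genes were examined for trimethylation of lysine 27 of histone H3 (H3K27me3), a repressive chromatin mark, in 2 human lymphoma B-cell lines. The set held 10 genes: WNT1, WNT10B, WNT6, WNT10A, WNT3A, WNT2, WNT7A, WNT7B, WNT5A and WNT5B. Each gene was taken as its hg19 span, rounded to 1 kb, extended by 10 kb on each side. Every enriched island that overlapped such a window was assigned to the gene. In this way 33 of 58144 islands in LY19WT and 30 of 47432 islands in LY19Y646F were collected. WNT6 and WNT10A are neighbours, as are WNT1 and WNT10B, so their windows overlap and share islands, and the 10 genes make up 8 separate loci. LY19WT was labelled EZH2 wild type. LY19Y646F expressed EZH2-Y646F, a catalytic mutant of EZH2, constitutively from a CMV promoter. Whether it also kept wild-type EZH2 is not given in the sources used here. Both lines were untreated and at passages 10 to 15, and for each there were 3 libraries of ChIP DNA and 1 of input. Islands had been called after pooling the 3 libraries. Each line therefore has 1 list, which carries no replicate error, and no test between lines could be made.

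WNT proteins are secreted, lipid-modified glycoproteins that bind Frizzled receptors. With the co-receptors LRP5 and LRP6 many of them stabilise β-catenin, while others act mainly through β-catenin-independent routes such as planar cell polarity. Their genes are classic Polycomb targets: in cells that do not use them, Polycomb repressive complex 2, with EZH2 as its methyltransferase, commonly places H3K27me3 over their CpG-rich starts and bodies. EZH2 mutants at the tyrosine altered here recur in B-cell lymphoma and favour the conversion of dimethylated to trimethylated lysine 27. Expression was not measured, so the data speak of the mark and not of WNT transcripts.

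All 10 WNT windows held at least 1 island in LY19WT and 9 of 10 did in LY19Y646F, where WNT7B had none. For comparison, 42.9% of 55812 autosomal tiles of 50 kb held an island in LY19WT and 36.4% in LY19Y646F. The WNT windows measured 24 to 84 kb. At least 50% of the window was covered by islands at 5 genes in each line, against 18.9% of tiles in LY19WT and 11.4% in LY19Y646F. The median covered share of the windows was 53.9% in LY19WT, with a range of 25.4% to 79.2%. In LY19Y646F the median was 48.8%, with a range of 0% to 79.6%. Tiles fall anywhere on the autosomes, including stretches without genes, so this contrast does not separate WNT genes from other genes.

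Covered share fell on opposite sides at different WNT genes. It was lower in LY19Y646F by at least 25 percentage points at 4 genes, WNT10A, WNT2, WNT6 and WNT7B. It was higher by at least 25 points at WNT5A and WNT7A. With neighbouring genes joined, 3 of the 8 loci were lower in LY19Y646F by at least 25 points and 2 were higher. WNT1, WNT10B, WNT3A and WNT5B lay within 25 points. Of all tiles, 18.8% were covered at least 25 points more in LY19WT and 9.45% in LY19Y646F. Among the 30659 tiles with an island in either line these shares were 34.2% and 17.2%, which lie near 4 and 2 of 10. The number of genes in each direction is thus no feature of the WNT set, and what follows describes single genes. When LY19WT was limited to its islands of lowest p-value, up to the length covered in LY19Y646F, 2 genes were at least 25 points higher in LY19WT and 4 in LY19Y646F. They were not the same genes. WNT10A and WNT2 stayed past 25 points on the side of LY19WT, while WNT7B (-20 points) and WNT6 (-17.7) no longer reached it. On the side of LY19Y646F, WNT5A and WNT7A were joined by WNT5B (49.2 points) and WNT3A (30.8).

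**Figure D1:**
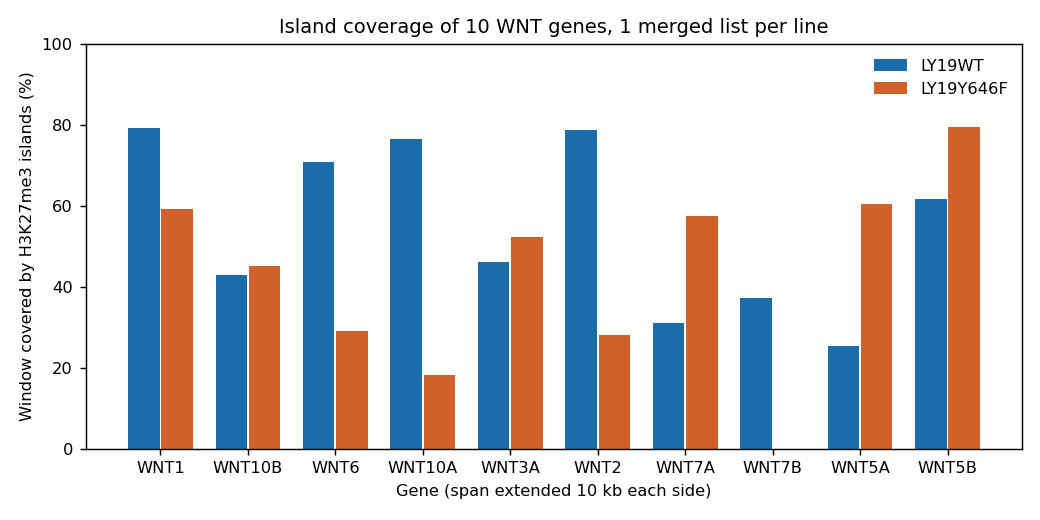
Share of each gene window covered by H3K27me3 islands (y axis, percent) for 10 WNT genes (x axis), 1 bar per line and 1 merged list per line, with no error bars. WNT7B has no bar in LY19Y646F, and WNT5A and WNT7A stand higher in LY19Y646F while WNT10A, WNT2 and WNT6 stand higher in LY19WT.

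**Figure D2:**
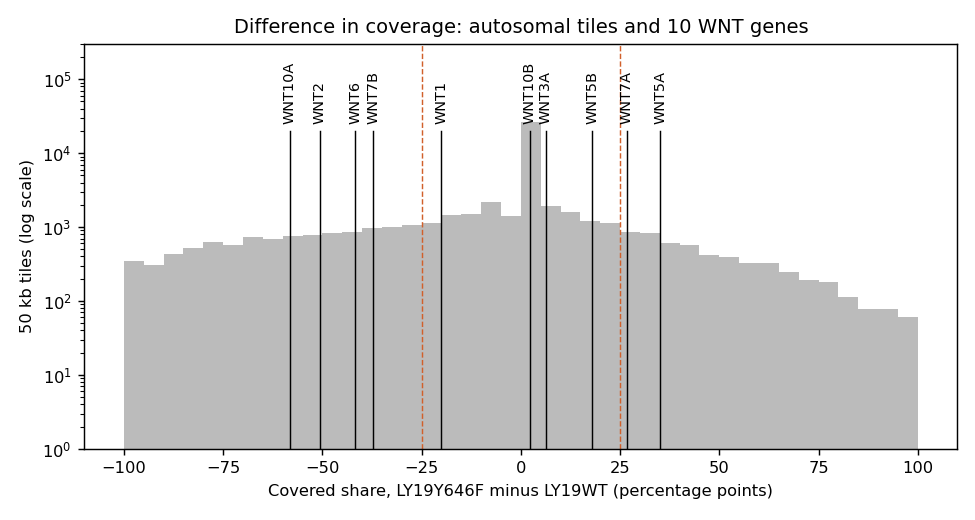
Difference in covered share, LY19Y646F minus LY19WT (x axis, percentage points), over 55812 autosomal tiles of 50 kb (grey bars, number of tiles on a log axis) with the 10 WNT windows as vertical lines. Dashed lines mark 25 points in each direction, and WNT10A lies farthest to the left at -58.2 and WNT5A farthest to the right at 35.1.

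The WNT6 and WNT10A pair on chromosome 2 had the islands of highest fold over input of the set, both in LY19WT. WNT10A (chr2:219745000-219759000, hg19) is a ligand of tooth and skin appendage development, and WNT6 (chr2:219724000-219739000) lies next to it in the same orientation. In LY19WT an island at chr2:219742001-219756600 (hg19) ran from 3.0 kb before the WNT10A start to 11.6 kb after it. It held 1271 ChIP and 109 input reads, and its authors' fold over input was 3.79 (95% interval 3.12 to 4.66, exact, for counting error only). A second island, at chr2:219758001-219774000, held 1525 ChIP and 127 input reads at an authors' fold of 3.91 (3.26 to 4.72). These folds were at or above 97.2% and 97.7% of all LY19WT islands. The WNT10A body was covered to 90% in LY19WT and to 0% in LY19Y646F.

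In LY19Y646F a gap of 27.8 kb between islands, at chr2:219736001-219763800, held the WNT10A start, 9.0 kb from the nearest island. The window was covered to 76.5% and 18.2% in LY19WT and LY19Y646F. Downstream of the gene LY19Y646F had an island of 20 kb with 913 ChIP and 193 input reads, at an authors' fold of 1.81 (1.54 to 2.12). At WNT6 the window was covered to 70.9% and 29.1%, and the body to 56.0% and 40.0%. Upstream of the WNT6 start, LY19WT islands covered 94.0% of 10 kb and LY19Y646F islands 42.0%. Both lines had an island just inside WNT6, 4.2 kb wide with 282 ChIP reads in LY19WT and 3.4 kb wide with 138 in LY19Y646F. Within 1 Mb on each side of the WNT10A window the lines were covered alike, to 39.2% and 34.7%, so the difference at WNT10A was larger than that of its surroundings.

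The other neighbouring pair, WNT1 and WNT10B on chromosome 12, is transcribed in opposite directions from a shared stretch. WNT1 (chr12:49372000-49376000) encodes the founding member of the family, known from midbrain development, and WNT10B (chr12:49359000-49366000) a ligand known from bone and fat. In LY19WT 1 island of 15.2 kb, chr12:49364401-49379600, spanned both starts and the whole of WNT1, with 1164 ChIP reads, 116 input reads and a fold of 3.27 (2.70 to 3.99). In LY19Y646F this place was split. An island of 5.8 kb with 238 ChIP and 41 input reads (authors' fold 2.22, 1.59 to 3.17) lay between the genes, and one of 3.6 kb with 177 and 31 reads began at the far end of WNT1. The 4.6 kb between them held the rounded span of WNT1, which lay 100% within islands in LY19WT and 0% in LY19Y646F. Such a gap is of ordinary length, as the median gap on chromosome 12 in LY19Y646F was 5.2 kb. It ends at the rounded end of WNT1, so the exact 0% carries the 1 kb rounding. Over the extended windows the contrast was smaller, 79.2% and 59.2% at WNT1 and 43.0% and 45.2% at WNT10B. With islands joined across gaps of up to 5 kb, the difference at WNT1 was -8.33 points. An island past the end of WNT10B, with 246 ChIP and 40 input reads, was called in LY19Y646F alone.

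WNT3A (chr1:228195000-228249000), a β-catenin-activating ligand of early mesoderm, had 46.2% of its window covered in LY19WT by 5 islands and 52.4% in LY19Y646F by 6. This difference of 6.22 points depended on the setting. It was 0 points at an FDR limit of 1e-10 and 0.26 points with an extension of 50 kb. Over the gene without its flanks it was 22.2 points, and at equal covered length 30.8 points, which is past 25. In LY19WT the longest island, 23.8 kb with 1597 ChIP and 249 input reads, ended 1.2 kb before the start. LY19Y646F had 2 upstream islands, of 8.4 and 4.6 kb, and the second ended 2.4 kb before the start. Inside the gene, LY19Y646F islands began 4.6 kb after the start and LY19WT islands 16.0 kb after it. Islands took up 40.7% of the gene body in LY19WT and 63.0% in LY19Y646F. Relative input density, the median input reads per kb of islands in the surrounding 10 Mb over the autosomal median of the line, was 1.28 in LY19WT and 1.02 in LY19Y646F. Its part in these values was not tested.

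WNT2 (chr7:116917000-116963000), a ligand known from lung and placenta, lay under the longest island of the set. This LY19WT island, chr7:116893601-116942800, measured 49.2 kb and held 3758 ChIP and 362 input reads, at an authors' fold of 3.38 (3.03 to 3.77). It was wider than or as wide as 98.4% of LY19WT islands. LY19WT islands covered 89.1% of the WNT2 body and 78.8% of the window. LY19Y646F had 2 islands there, of 14.8 kb with 585 ChIP and 130 input reads and of 3.8 kb with 142 and 20, which covered 40.4% of the body and 28.2% of the window. Both lay wholly inside the 49.2 kb LY19WT island. From 21.4 kb inside the gene, LY19Y646F had no island for 441.6 kb upstream, at chr7:116941601-117383200. The surroundings differed in the same direction: within 1 Mb on each side, 56.2% was covered in LY19WT and 6.35% in LY19Y646F. Relative input density was 0.907 and 1.00.

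WNT7A (chr3:13858000-13922000) and WNT7B (chr22:46316000-46373000), close relatives known from limb patterning and from lung, kidney and brain vessel development, ran in opposite directions. Islands took up 31.0% of the WNT7A window in LY19WT and 57.6% in LY19Y646F. LY19WT had 6 islands there, 1.8 to 12 kb wide, and LY19Y646F also had 6, from 6.2 to 40.0 kb wide. Both lines had an island of similar extent within the gene. It held 762 ChIP and 101 input reads in LY19WT, and 465 and 75 in LY19Y646F, at authors' folds of 2.46 and 2.37. The longest LY19Y646F island, chr3:13811401-13851400, lay beyond the end of the gene with 1917 ChIP and 281 input reads and a fold of 2.60 (2.30 to 2.96). The surroundings were also covered more in LY19Y646F, to 49.4% against 40.7%.

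WNT7B carried 5 islands in LY19WT, all in the part of the gene body that starts 16.2 kb after the gene start. They held 1814 ChIP and 265 input reads in all. The most enriched, 5.6 kb wide with 481 ChIP and 46 input reads, had an authors' fold of 3.40 (2.51 to 4.71). The weakest had 252 and 63 reads and a fold of 1.3 (0.984 to 1.74), so its counting interval includes 1. LY19Y646F had no island from 46303401 to 46401000 on chromosome 22, a gap of 97.6 kb. The median of the 1269 gaps of LY19Y646F on that chromosome was 3.2 kb, and 94.7% of them were as long or shorter, so longer gaps also occurred. The surroundings went the other way: within 1 Mb on each side LY19Y646F islands covered 33.7% and LY19WT islands 23.5%. Relative input density in the surrounding 10 Mb was 0.910 in LY19Y646F and 1.02 in LY19WT. Reads outside islands were not analysed here, and a stretch without islands may hold the mark below the calling limit.

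WNT5A (chr3:55500000-55521000) and WNT5B (chr12:1726000-1756000), paralogues that act mainly without β-catenin in cell polarity and movement, were both covered more in LY19Y646F. At WNT5A islands took up 25.4% of the window in LY19WT and 60.5% in LY19Y646F, and 44.8% and 81.9% of the body. LY19WT had 3 islands between 1.0 kb before and 11.6 kb after the start. The one over the start was 2.4 kb wide, with 114 ChIP reads, 10 input reads and a fold of 3.71 (1.95 to 7.95). LY19Y646F had 4 islands that began 2.8 kb after the start and ran past the end of the gene, the longest 11.8 kb wide with 467 ChIP and 102 input reads. The surroundings of WNT5A were covered less in LY19Y646F, to 23.9% against 37.5%, so the direction at the gene differed from that around it.

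At WNT5B islands took up 61.6% of the window in LY19WT and 79.6% in LY19Y646F. The LY19Y646F islands began 6.6 kb before the start and the LY19WT islands 7.0 kb after it. The LY19Y646F island over the start was 19.2 kb wide, with 869 ChIP reads, 187 input reads and a fold of 1.77 (1.51 to 2.09). The first LY19WT island was 15.2 kb wide, with 1821 and 199 reads and a fold of 2.98 (2.57 to 3.46). Its 119.8 ChIP reads per kb were the highest density of the set, beside 13.1 input reads per kb, where the autosomal median of LY19WT was 8.41. Relative input density around WNT5B was 1.3 in LY19WT and 0.981 in LY19Y646F over 10 Mb, and 1.49 and 1.01 over 1 Mb on each side. How far this input moved the LY19WT island calls was not tested.

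**Figure D3:**
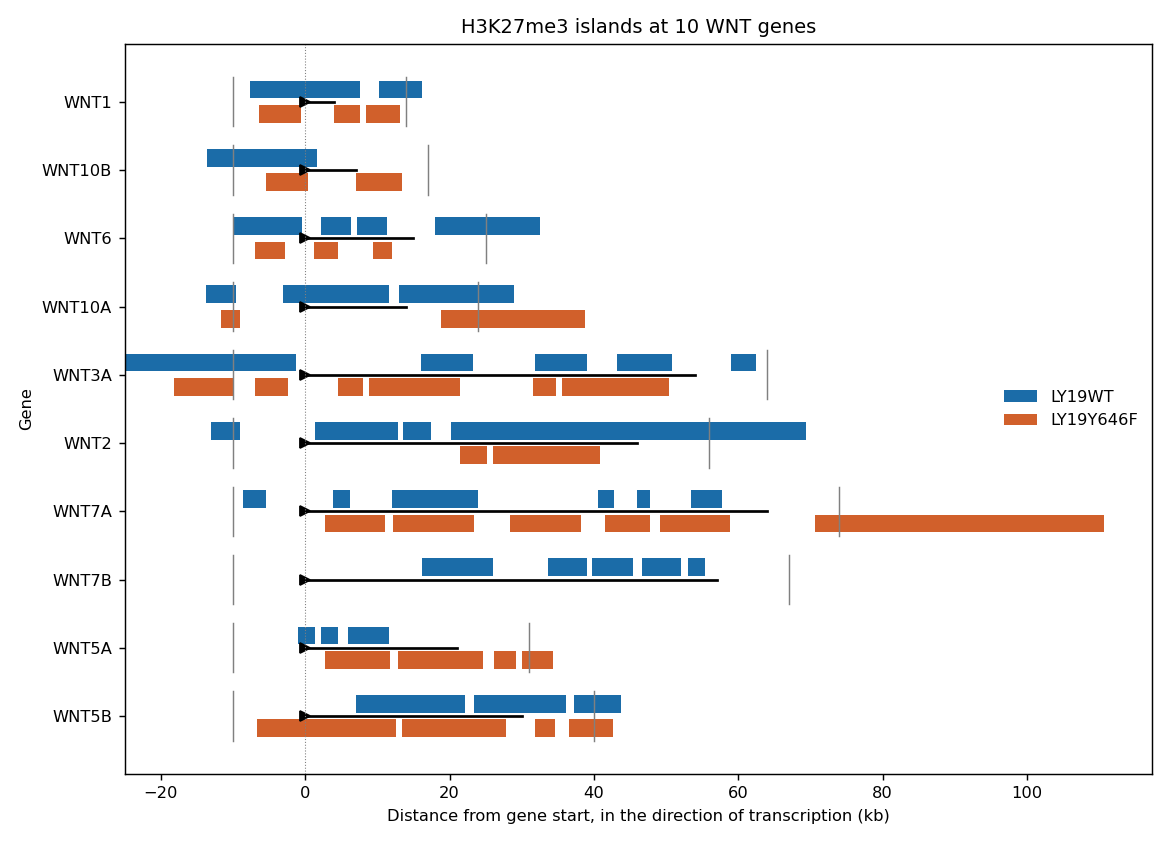
H3K27me3 islands by distance from the gene start in the direction of transcription (x axis, kb) for 10 WNT genes (y axis), LY19WT above and LY19Y646F below each gene. Black lines are gene spans with the start as an arrowhead, and grey ticks mark the window. In LY19Y646F the WNT10A body is bare, the WNT7B track is empty, and the rounded WNT1 body fits in a gap of 4.6 kb.

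Start positions carry the 1 kb rounding of the spans, so distances under 1 kb do not place a start inside or outside an island. The rounded start lay inside an island at WNT1, WNT10B, WNT10A and WNT5A in LY19WT, and at WNT10B and WNT5B in LY19Y646F. The LY19Y646F island reached only 0.4 kb past the WNT10B start, the WNT6 start lay 0.4 kb from a LY19WT island, and the WNT1 start 0.6 kb from a LY19Y646F island. These 3 calls are within the rounding. Of the 10 kb centred on the start, at least 50% was covered at 4 genes in each line. In LY19WT these were WNT1 (100%), WNT10A (80.0%), WNT6 (74.0%) and WNT10B (66.0%). In LY19Y646F they were WNT5B (100%), WNT6 (56.0%), WNT1 (54.0%) and WNT10B (54.0%). Over autosomal tiles of 10 kb the background was 20.3% in LY19WT and 14.0% in LY19Y646F. With 2 kb or 10 kb on each side of the start, the LY19Y646F count was 2.

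The first kb after the start was covered to at least 50% at 4 of 10 genes in LY19WT and at 1 in LY19Y646F, which was WNT5B. Of autosomal tiles of 1 kb, 19.8% in LY19WT and 13.7% in LY19Y646F were covered as much, so 1 of 10 lies near the LY19Y646F background. In the last kb before the start the counts were 5 in LY19WT and 2 in LY19Y646F. These bins are no wider than the rounding of the starts. Over 20 kb on each side the LY19Y646F count moved between 0 and 7 genes. It was 0 from 9 to 7 kb before the start and 7 from 9 to 11 kb after it, so the start was not its lowest point. In LY19WT the count stayed at 4 to 6 genes. Genes of a neighbouring pair share islands, so these counts are not of independent places.

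**Figure D4:**
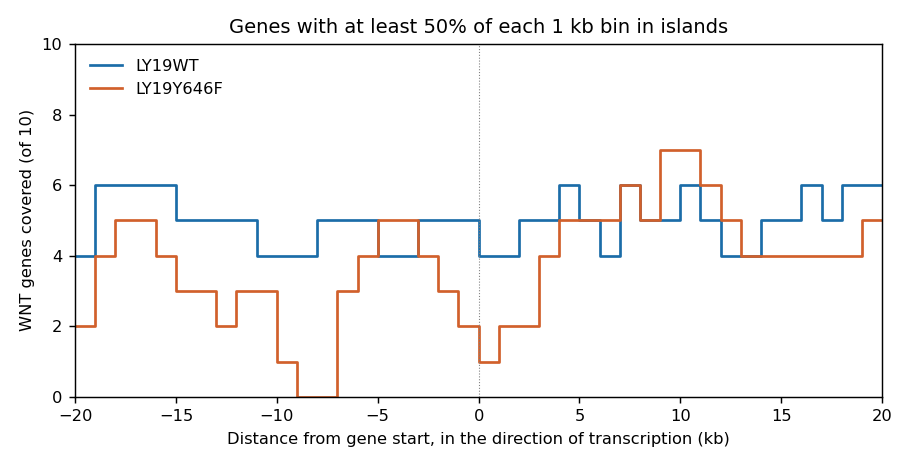
Number of the 10 WNT genes with at least 50% of a 1 kb bin in islands (y axis) by distance from the gene start in the direction of transcription (x axis, kb), 1 line per cell line. LY19Y646F has 1 gene in the first bin after the start, where LY19WT has 4, and 2 in the bin before it, where LY19WT has 5. It falls to 0 genes between 9 and 7 kb before the start. Starts are rounded to 1 kb, the width of a bin.

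Start sequences are shown for the genes whose rounded start lay in an island in 1 line alone, WNT1 (within the rounding in LY19Y646F), WNT10A, WNT5A and WNT5B, since CpG density is the sequence property known for Polycomb targets. They are RefSeq promoters on GRCh38.p14, which run from 250 bases before to 50 after the start, and they were matched by symbol, not by position, to the hg19 islands. Of the 10 genes 8 matched, with 10 promoters in all, and WNT7B and WNT10B have no entry. Each is printed 5′ to 3′ on the strand of the gene, and capitals mark every CG dinucleotide.
WNT1, chr12:48978072-48978371, plus strand: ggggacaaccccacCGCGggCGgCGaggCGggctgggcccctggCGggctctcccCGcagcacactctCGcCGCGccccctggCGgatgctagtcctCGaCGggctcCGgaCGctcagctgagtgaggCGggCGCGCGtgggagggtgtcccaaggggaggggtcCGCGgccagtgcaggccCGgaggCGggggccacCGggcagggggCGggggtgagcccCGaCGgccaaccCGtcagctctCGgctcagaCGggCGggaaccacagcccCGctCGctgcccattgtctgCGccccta
WNT10A, chr2:218880602-218880901, plus strand: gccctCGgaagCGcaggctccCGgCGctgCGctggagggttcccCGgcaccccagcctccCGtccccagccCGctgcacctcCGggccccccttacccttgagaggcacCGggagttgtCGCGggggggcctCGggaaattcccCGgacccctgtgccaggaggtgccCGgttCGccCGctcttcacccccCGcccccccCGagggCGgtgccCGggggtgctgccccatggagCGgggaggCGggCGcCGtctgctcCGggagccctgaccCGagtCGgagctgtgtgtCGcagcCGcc
WNT5A, chr3:55487257-55487556, minus strand: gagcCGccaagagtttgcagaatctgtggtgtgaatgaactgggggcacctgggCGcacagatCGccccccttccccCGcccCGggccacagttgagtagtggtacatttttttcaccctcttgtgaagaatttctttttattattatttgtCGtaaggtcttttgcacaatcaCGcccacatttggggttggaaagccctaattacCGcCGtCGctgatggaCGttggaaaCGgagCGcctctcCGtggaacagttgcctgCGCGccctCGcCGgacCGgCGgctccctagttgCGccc
WNT5B, chr12:1616806-1617105, plus strand: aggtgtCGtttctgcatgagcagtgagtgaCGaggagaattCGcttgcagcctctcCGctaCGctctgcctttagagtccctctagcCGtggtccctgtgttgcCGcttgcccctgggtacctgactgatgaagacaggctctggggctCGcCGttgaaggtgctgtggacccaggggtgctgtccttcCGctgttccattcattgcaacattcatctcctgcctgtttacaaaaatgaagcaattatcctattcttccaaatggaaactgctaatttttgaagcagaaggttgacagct

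The WNT1 promoter held 34 CG dinucleotides in 300 bases and that of WNT10A held 30, against a median of 14 over 35116 promoters of the same length. At least as many were found in 15.6% of all promoters for WNT1 and in 22.4% for WNT10A. The start of WNT5A had 21 and its second promoter, 5.91 kb away, had 22. WNT5B stood apart with 10 CG dinucleotides at the first promoter and 7 at the second, 12.2 kb away, both below the median. It was also the gene whose rounded start lay firmly inside an island in LY19Y646F. That leaves out the second promoters, which lie downstream. If the first promoter is taken as the rounded start, the second of WNT5B falls in islands of both lines. These run from 7 to 22.2 kb in LY19WT and end at 12.6 kb in LY19Y646F. The second of WNT5A then falls in the LY19Y646F island from 2.8 to 11.8 kb. It lies at the edge of a LY19WT island that begins at 6 kb. The edges at 12.6 and 6 kb are within the rounding. The remaining promoters were CG-rich, with 49 at WNT3A, 43 at WNT2, 40 at WNT7A and 37 at WNT6. The rounded starts of these 4 genes lay in no island in either line, that of WNT6 by less than the rounding in LY19WT.

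Reads in the WNT islands were denser in LY19WT. Its 33 islands held 46.7 to 119.8 ChIP reads per kb, with a median of 60.0, and the 30 of LY19Y646F held 36.3 to 49.2, with a median of 42.1. Over the whole lists the medians were 57.3 and 41.8, so the WNT islands followed their lists. Median input was 9.11 reads per kb in the WNT islands of LY19WT and 7.79 in those of LY19Y646F. The median authors' fold was 2.24 and 2.2, beside 2.28 and 1.90 for all islands. Folds over 3 were found at 6 WNT islands in LY19WT and at 1 in LY19Y646F, a WNT7A island at 3.08. Of all islands 14.2% and 3.69% were above 3. Among the longest island of each gene, the counting intervals of the lines did not overlap at WNT10A, WNT2 and WNT5B, where LY19WT was higher. These longest islands often lay in different places. With all overlapping islands summed, the fold was 3.6 and 1.81 at WNT10A and 3.05 and 1.85 at WNT2, LY19WT first. At WNT5B it was 2.15 and 2.13, so the contrast there rests on which island was the longest.

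**Figure D5:**
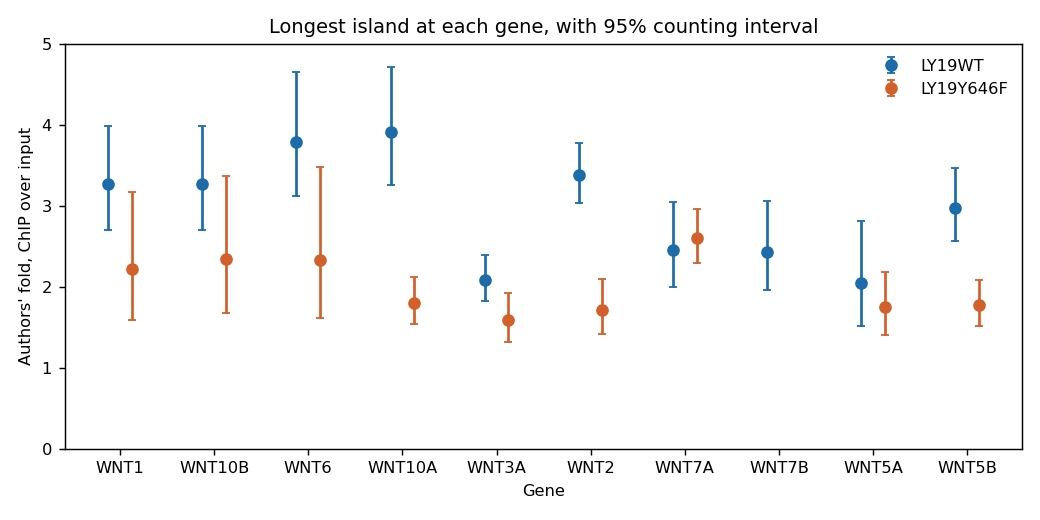
Authors' fold of ChIP over input (y axis) for the longest island at each WNT gene (x axis), by line, with 95% exact intervals that cover counting error only. LY19WT stands at 3.91 and LY19Y646F at 1.81 at WNT10A, while at WNT7A they stand at 2.46 and 2.60. The longest islands of the lines often lie in different places. At both of these genes that of LY19Y646F lies beyond the gene end and reaches outside the window. At WNT10A that of LY19WT runs from 13 to 29 kb after the start. It too lies mostly beyond the gene end and reaches outside the window. The LY19WT island over the WNT10A body has a fold of 3.79. The LY19Y646F island that matches the LY19WT one within WNT7A has a fold of 2.37.

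At 7 places an island of each line overlapped by at least 50% of both, so that enrichment could be compared at sites shared at least in part. The ratio of the authors' folds, LY19Y646F over LY19WT on the log2 scale, was below 0 at 5 of 7, with a median of -0.14. At the island downstream of WNT10A it was -1.11 (95% interval -1.46 to -0.77 from the read counts). The islands of that pair were offset, chr2:219758001-219774000 in LY19WT and chr2:219763801-219783800 in LY19Y646F, so their folds are partly of different sequence. The pairs of WNT1, WNT6 and the body of WNT5B were offset too. At the island past the end of WNT5B the log2 ratio was 0.89 (0.27 to 1.51). For the matched islands past the end of WNT1, at WNT6, WNT5A and WNT7A, and in the body of WNT5B, the interval included 0. The values ran from -0.57 at WNT6 to 0.25 at WNT5A. The WNT1 pair began 10.2 kb after the start in LY19WT and 8.4 kb after it in LY19Y646F, so it is not over the gene. ChIP reads per kb of island, divided by the total in islands of the line, gave other values on the same log2 scale: 0.047 at WNT10A, 1.03 at the WNT5B end and a median of 0.50. That total depends on how much of the genome was called, so this scale is not independent of list length. No spike-in or other external scale was used here, and the amount of the mark was not compared.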

How the data were processed

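H3K27me3 ChIP-seq of LY19WT and LY19Y646F had been aligned to hg19 with Bowtie2 2.2.9; SAMtools 1.3.1, SICER and bedtools are also named, all per the submitters' processing notes, without versions for the last 2. Per the labels, the authors called SICER islands per line on merged replicates against the input of that line at an FDR of 0.001. Per the file headers, the deposited columns are raw ChIP and input read counts per island, a p-value, an FDR and a linear fold. The fold is the ratio of counts divided by 3.07 in LY19WT and 2.62 in LY19Y646F, constants recovered from the values. Islands held 37556030 and 17410034 ChIP reads and 4949411 and 3527109 input reads. Library totals are not given in the sources used here, so calls are not matched for depth. At a given enrichment the p-value falls with greater depth and DNA abundance, and either can widen islands.

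Covered shares, tiles and distances were computed with scipy 1.17.1, pandas 2.3.3 and numpy 2.4.6 under Python 3.11.15. The difference in covered share of 50 kb tiles was tested on simulated islands, 1 inside each tile. Distances and gene windows were not tested in this way. Coordinates are 1-based. Counts are of whole islands, also where these leave the window. Intervals are Clopper-Pearson for folds, and normal on the log scale for ratios of folds, with the library constant fixed. Genes, windows and lists were chosen with earlier results of these data known. All 10 genes were named by rule. Spans came with the choice of genes, and strands from the RefSeq promoter table or, for WNT7B and WNT10B, from general knowledge. No hg19 annotation was used, so exons and other pathway genes were not analysed here. Alternatives covered FDR, island joining, extension, tile size, start window, scaling and list length.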

Additional observations from a re-analysis of the deposited data

How the results depend on the processing

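No paired analysis was possible because the replicates of each line were merged into 1 list before deposit, and for the same reason no replicate could be left out. The 6 genes that differed by at least 25 points kept their direction at FDR limits of 1e-05 and 1e-10, with islands joined across 5 kb, with no extension, with an extension of 50 kb and at equal covered length. Which genes passed 25 points changed. With no extension WNT1 passed it and WNT6 did not, and with joined islands WNT5B passed it. With 50 kb on each side, which takes in more of the surroundings, 2 genes were at least 25 points higher in LY19WT and 0 in LY19Y646F. At equal covered length the numbers were 2 and 4, and at a limit of 50 points 2 and 0. The median covered share with 50 kb on each side was 34.3% in LY19WT and 38.25% in LY19Y646F. It was also higher in LY19Y646F with joined islands (60.3% against 58.95%), at equal covered length (48.81% against 36.68%) and with joined neighbours. It was higher in LY19WT at both FDR limits and with no extension. Around the start, 2 genes were covered to at least 50% in LY19Y646F with 2 kb or 10 kb on each side, and 2 with the start moved 1 kb downstream, a shift added after seeing the data, as were tiles with an island in either line and joined neighbours. The median log2 ratio of matched islands turned to 0.37 when whole-island read counts were divided by the sum over all islands of the line, which also compares islands of unequal width. It was 0.50 when this was done per kb, also added after seeing the data. This sum falls with a shorter list. Without replicates, the spread between ChIP preparations is unknown.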
